A study of Mus musculus with 16 samples.

Results

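Natural killer (NK) cells infiltrating subcutaneous neuroblastoma grafts were described in mice lacking CD200R (KO) and in wild-type (WT) mice. They were the cells that the authors' deposited metadata name NK cells, 564 of 20376 cells. The KO sorted library held 287 of them, the WT sorted library 186, the KO tumor library 79 and the WT tumor library 12. All mice were male, C57BL/6 and 8 weeks old when they received NB9464D cells, a mouse neuroblastoma line, under the skin, and tumors were taken on day 28. Sorted libraries were made from leukocytes sorted for CD45, and tumor libraries from all cells of the digested grafts, with 10x Genomics 3′ chemistry. The labels give the genotype as CD200R-/- among the characteristics but as CD200-/- in the growth protocol. Cd200r1 itself was read first for that reason. For every genotype and preparation the labels name 4 samples, which cannot be told apart among the deposited cells, so each group was 1 library. No spread between animals could be measured, and genotype cannot be told apart from differences between animals, grafts or preparations.

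NK cells are innate lymphocytes that kill stressed, infected or transformed cells without an antigen receptor of their own. Activating receptors such as NKp46, which is encoded by Ncr1, and inhibitory receptors that read MHC class I set whether a target is attacked. Killing is carried out by granules that release perforin, which opens the target membrane, and granzymes, serine proteases that enter the target. In the mouse, granzymes B to G lie next to each other in 1 gene cluster, and granzymes C to G are best known from NK cells and cytotoxic T cells after strong stimulation with interleukin 2 or 15. CD200R is an inhibitory receptor, best studied on myeloid cells, whose ligand CD200 is carried by many cell types.

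The NK cells held 1960534 UMIs (unique molecular identifiers, 1 for each captured RNA molecule) in the KO sorted library, with a median of 5411 per cell, and 2404145 in the WT sorted library, with a median of 8714.5. The level of a gene is its CPM, UMIs scaled to 1000000 UMIs of all genes in the class and library. Intervals are at 95% and reflect counting error only, with nothing on variation between animals. Those of levels and ratios also leave out variation between cells. Cell barcodes shared by more than 1 library numbered 113 in the whole series, and 9 NK cells carried one. NK cells made up 6.67% (5.94 to 7.45) of KO sorted cells and 3.56% (3.08 to 4.10) of WT sorted cells, and 1.34% of KO tumor and 0.242% of WT tumor cells.

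Markers of the class are given as a description, because the cells were named from the same RNA. At least 1 UMI of Ncr1 or of Klrb1c, which encodes the surface marker NK1.1, was found in 90.2% of KO and 95.2% of WT sorted NK cells. The same was found in 18.9% of KO and 11.3% of WT sorted CD8+ effectors, and in 1.17% of KO and 1.23% of WT sorted B cells, a class that should lack both genes. Median depth of the effectors was 3276 UMIs in KO and 4841.5 in WT, and that of the B cells 2168 in KO and 3118 in WT. The 10 genes that led the NK cells over the rest of their library included Gzmc, Gzmd, Gzme, Gzmf and Gzmg in both sorted libraries. Klra8, Klra4, Prf1 and Styk1 were also among the 10 in the KO sorted library, and Ccl1, Fcrl6 and Khdc1a in the WT sorted library. A UMI of Cd3d, Cd3e or Cd3g, which encode chains of the T cell receptor complex, was found in 15.7% of KO and 19.4% of WT sorted NK cells, against 96% of KO and 100% of WT effectors. These shares were not matched for depth, which was greater in WT NK cells. Taken by itself, Cd3e had 43 UMIs in 16 KO and 6 UMIs in 5 WT sorted NK cells.

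RNA of myeloid cells, neutrophils, dendritic cells, erythroid cells and platelets was more abundant in the WT sorted NK cells, and that of B cells was not. The summed level of 13 myeloid markers was 557 CPM in KO and 4759 CPM in WT sorted NK cells, and all 13 were detected in both. For 8 neutrophil markers it was 19.4 CPM in KO and 399 CPM in WT sorted NK cells, with Retnlg, Cxcr2 and Lcn2 at 0 in KO. For 7 erythroid and platelet markers it was 6.63 CPM in KO and 382 CPM in WT sorted NK cells. For 9 dendritic cell markers it was 329.5 CPM in KO and 703 CPM in WT sorted NK cells. For 8 B cell markers it was 280 CPM in KO and 248 CPM in WT, and for 9 markers of type 2 innate lymphoid cells 205 and 200 CPM. Cells with UMIs of at least 3 markers of a myeloid, B, fibroblast or erythroid lineage, called mixed cells below, were 14 of the KO (4.88%) and 38 of the WT sorted NK cells (20.4%). Without them the myeloid sum was 293 CPM in KO and 319 CPM in WT sorted NK cells. The neutrophil sum was then 6.77 CPM in KO and 16.2 CPM in WT, and the erythroid and platelet sum 5.64 CPM in KO and 33.6 CPM in WT. The dendritic sum was 153 CPM in KO and 100 CPM in WT, and the B cell sum 194 and 165 CPM. Type 2 innate lymphoid markers summed to 177 CPM in KO and 51.7 CPM in WT. Cd3d, Cd3e and Cd3g then stood at 33.85, 24.3 and 42.3 CPM in KO and at 14.9, 1.29 and 35.5 CPM in WT. No cell was removed as a doublet in the main values, and values without the mixed cells stand beside the results they change most.

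Cd200r1 (mm10 chromosome 16, 44765736 to 44794978) had 0 UMIs in KO sorted NK cells, which allows up to 1.88 CPM. In WT sorted NK cells it had 20 UMIs, or 8.32 CPM (5.08 to 12.8), spread over 12 cells. Those 12 cells were 6.45% of the WT sorted NK cells, against 0.309% of WT sorted B cells, and 6 of the 20 UMIs remained without mixed cells. The CD8+ effectors had 0 UMIs in KO and 8 UMIs in WT sorted libraries, and NK cells of both tumor libraries had 0. The gene was thus rare in WT NK cells and not detectable in KO NK cells at this depth.

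Granzymes C to G, genes of 1 cluster on chromosome 14, were lower in KO than in WT sorted NK cells. They are close copies of each other, so reads can be assigned to the wrong copy and their sum is given beside each gene. Identity between pairs of their transcripts was 76.1 to 94.8%, and 61.6 to 95.4% over the last 300 bases, the end that 3′ chemistry reads. In mm10 (GRCm38) all lie on the minus strand, Gzmc at 56231441 to 56234656, Gzmf at 56205263 to 56211417, Gzmg at 56156582 to 56159579, Gzmd at 56129556 to 56132608 and Gzme at 56117626 to 56120625. Gzmb, at 56258838 to 56262260, is their neighbour. The promoters are shown because the 5 genes were low together in KO NK cells while Gzmb and Gzma differed less. The 200 bases before each start in RefSeq (GRCm38.p6) follow, read 5′ to 3′ on the minus strand, with motif matches in capitals. RefSeq starts can differ from the gene positions above, which are from GENCODE. The Gzmb window is separated from the gene position given above, and the windows of Gzmd and Gzmf overlap theirs.
Gzmc, chr14:56234658-56234857: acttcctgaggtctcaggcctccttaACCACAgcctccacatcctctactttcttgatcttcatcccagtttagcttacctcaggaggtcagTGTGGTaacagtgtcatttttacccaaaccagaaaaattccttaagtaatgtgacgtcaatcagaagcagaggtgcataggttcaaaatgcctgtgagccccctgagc
Gzmf, chr14:56211408-56211607: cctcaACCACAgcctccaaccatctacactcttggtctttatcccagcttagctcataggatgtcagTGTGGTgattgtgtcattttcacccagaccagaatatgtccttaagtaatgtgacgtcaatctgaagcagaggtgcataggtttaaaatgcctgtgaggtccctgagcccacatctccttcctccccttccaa
Gzmg, chr14:56159580-56159779: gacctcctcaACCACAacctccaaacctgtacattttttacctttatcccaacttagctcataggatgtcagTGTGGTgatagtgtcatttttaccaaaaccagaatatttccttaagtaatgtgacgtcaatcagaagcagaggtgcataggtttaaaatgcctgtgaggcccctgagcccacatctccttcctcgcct
Gzmd, chr14:56132594-56132793: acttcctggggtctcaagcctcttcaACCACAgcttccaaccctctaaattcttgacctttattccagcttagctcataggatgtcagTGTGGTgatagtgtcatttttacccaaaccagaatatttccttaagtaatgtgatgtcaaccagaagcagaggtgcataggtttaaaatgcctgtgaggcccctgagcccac
Gzme, chr14:56120626-56120825: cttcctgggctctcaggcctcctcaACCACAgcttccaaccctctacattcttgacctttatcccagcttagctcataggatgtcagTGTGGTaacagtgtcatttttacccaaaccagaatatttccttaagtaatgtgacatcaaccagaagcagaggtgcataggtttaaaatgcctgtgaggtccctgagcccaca
Gzmb, chr14:56262335-56262534: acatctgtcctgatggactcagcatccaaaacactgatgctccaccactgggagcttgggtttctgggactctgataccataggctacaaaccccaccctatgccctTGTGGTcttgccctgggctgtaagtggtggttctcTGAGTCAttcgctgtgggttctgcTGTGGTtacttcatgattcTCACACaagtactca
The motifs searched on both strands were the RUNX core TGTGGT, the T-box core TCACAC, AP-1 as TGANTCA and STAT as TTCNNNGAA. Each of the 5 promoters of the C to G genes held the RUNX core in both orientations (TGTGGT and ACCACA) and no other motif of the 4. Gzmn, a granzyme gene that lies between Gzmf and Gzmg, held none of the 4 in the same window. Gzmb held TGTGGT at 2 places, with 1 T-box core and 1 AP-1 match. Of 32851 mouse promoter windows of the same length, 11.2% held a RUNX core, 9.85% a T-box core, 5.48% an AP-1 match and 5.49% a STAT match. Identity between pairs of the C to G promoters was 86.9 to 94.97%, so the shared matches are not independent of each other. A match is a description of the letters and not of binding.

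Granzymes C to G summed to 9760 UMIs (4978 CPM) in KO sorted NK cells and 61346 UMIs (25517 CPM) in WT sorted NK cells. Ratios between KO and WT are given as log2 values relative to the median gene with at least 50 UMIs over both libraries, because that gene was itself 0.36 higher (log2) in KO NK cells when scaled by total UMIs. On that scale the sum was lower in KO NK cells by a log2 ratio of -2.72 (-2.75 to -2.69). Of 7227 genes so tested, 24.4% were higher in KO NK cells by 1.5-fold or more and 27.4% were lower by that much, and a share of that size is the background to every count below. Of the genes past 1.5-fold, 47.2% were higher in KO on this scale, against 72.2% when scaled by total UMIs.

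Gzmc had 2627 CPM in KO and 9880 CPM in WT sorted NK cells, a log2 ratio of -2.27 (-2.31 to -2.23). Gzmd had 1117 CPM in KO and 5601 CPM in WT sorted NK cells (-2.68), and Gzme 399 CPM in KO and 1640 CPM in WT (-2.40). Gzmf had 616 CPM in KO and 5097 CPM in WT sorted NK cells (-3.41). All 5 members were thus lower in KO, with Gzmg the most, at 219 CPM in KO and 3298 CPM in WT sorted NK cells (-4.27, -4.42 to -4.13). The UMIs of Gzmg came from 9 of 287 KO and 31 of 186 WT cells, and those of Gzmf from 12 KO and 33 WT cells. The narrow intervals do not cover that uneven spread over cells. Without mixed cells the 5 genes remained lower in KO NK cells, Gzmg by -3.87.

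**Figure D1:**
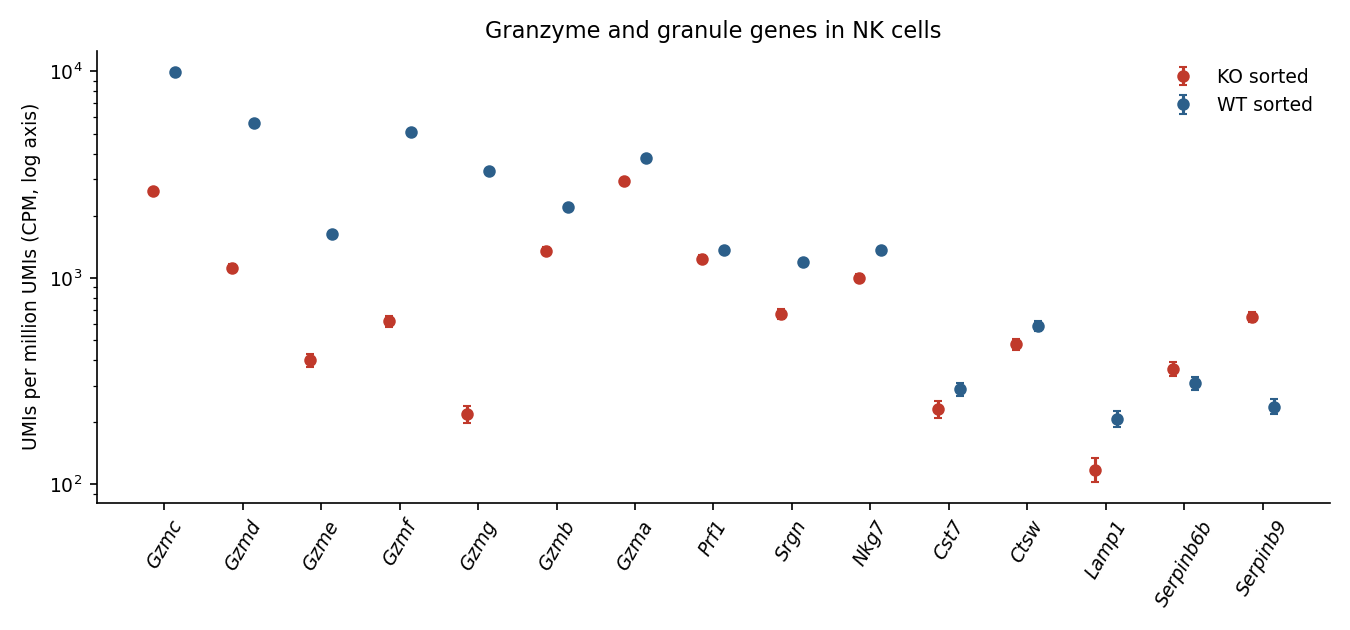
Levels (CPM, log axis) of granule genes in sorted NK cells, KO beside WT, with exact 95% Poisson intervals that cover counting error only. Granzymes C to G are lower in KO for every gene, from Gzmg at 219 against 3298 CPM to Gzmc at 2627 against 9880 CPM, while Prf1 stands at 1241 in KO and 1361 in WT.

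The difference lay in how many cells carried the cluster as well as in how much they carried. At least 1 UMI of the cluster was found in 91 of 287 KO sorted NK cells (31.7%, 26.4 to 37.4) and in 125 of 186 WT sorted NK cells (67.2%, 60 to 73.9). Depth differed, and with each cell thinned to 2000 UMIs the shares were 24.1% in KO and 59.1% in WT. The thinning left out 34 KO and 15 WT sorted NK cells that were shallower. B cells of the same libraries, which should lack the cluster, held a UMI in 5.73% of KO and 21.1% of WT cells, and CD8+ effectors in 5.71% of KO and 18% of WT cells. The shares of NK cells stood above those of B cells within each library, and the WT background was the higher of the 2.

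A higher cut gave the same order. Cells with at least 10000 CPM of the cluster, a cut chosen after the values were seen, were 15 KO cells (5.23%, 2.95 to 8.47) and 45 WT cells (24.2%, 18.2 to 31.0). Without mixed cells those shares were 4.76% in KO and 22.3% in WT, and within 1.5-fold of the cut lay 8 KO and 22 WT cells. The median cell had 0 CPM of the cluster in KO and 566 CPM in WT. A few cells carried most of the RNA: the top 28 KO cells held 95.7% of the cluster's UMIs, and the top 18 WT cells 82.1%. All 5 genes were detected together in 6 KO and 17 WT cells.

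**Figure D2:**
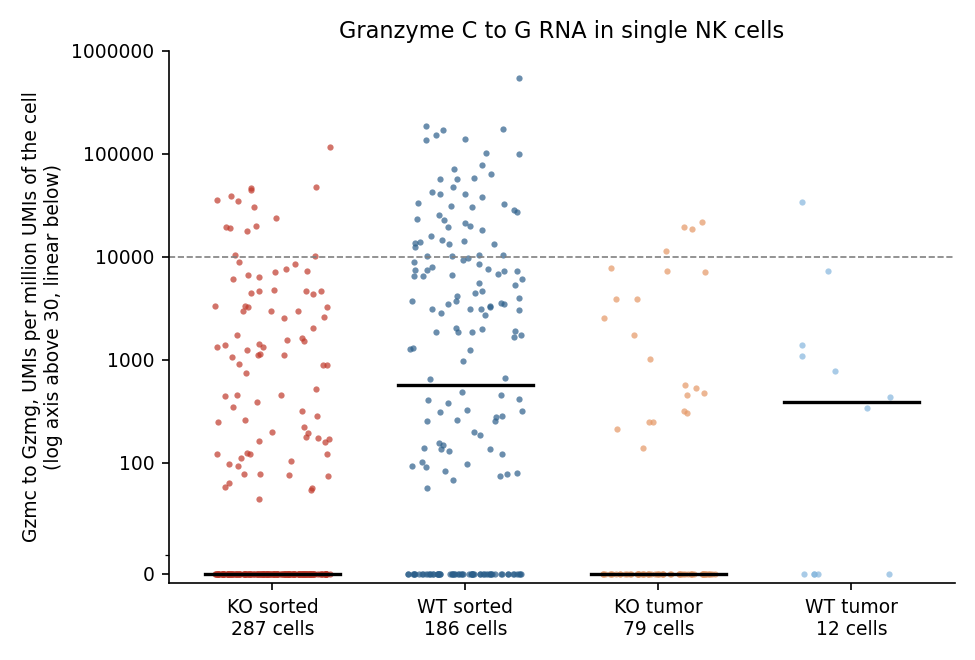
Each point is 1 NK cell, placed by its summed CPM of Gzmc to Gzmg (log axis above 30 CPM, linear below), in the KO and WT sorted and the KO and WT tumor libraries. Black bars are medians and the dashed line marks 10000 CPM, which 15 of 287 KO sorted and 45 of 186 WT sorted cells reach.

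Other genes followed the level of the cluster from cell to cell within both genotypes. These genes and the 3 ranges of cluster level (none, under 10000 CPM, and 10000 CPM or more) were chosen after values were seen, so no test was made. The ranges held 196, 76 and 15 KO cells and 61, 80 and 45 WT cells. Median depth in them was 4636.5, 8787 and 14491 UMIs in KO, and 4725, 11239.5 and 19572 UMIs in WT. Mixed cells made up 3.57, 6.58 and 13.3% in KO, and 8.20, 26.3 and 26.7% in WT. The part of depth and of mixed cells in these trends was not tested.

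Perforin, Prf1, stood at 835, 1068 and 3165 CPM in the 3 ranges of KO cells and at 557, 913 and 2193 CPM in those of WT cells. Gzmb stood at 1011, 1431 and 2367 CPM in KO and at 777, 1420 and 3654 CPM in WT. Spp1, which encodes the secreted phosphoprotein osteopontin, stood at 365, 874 and 9307 CPM in KO and at 228, 2795 and 9508 CPM in WT. Without mixed cells it was 376, 919 and 11396 CPM in KO and 250, 1715 and 9732 CPM in WT, so the order of the ranges was the same. Over all cells Spp1 had 1784 CPM in KO and 5038 CPM in WT sorted NK cells, a log2 ratio of -1.86 that was 0.33 among cells with no UMI of the cluster. Klrg1, an inhibitory receptor of mature NK cells, stood at 47.1, 130 and 373 CPM in KO and at 34.5, 121 and 323 CPM in WT. Tnfrsf9, the costimulatory receptor 4-1BB, stood at 265, 450 and 1172 CPM in KO and at 183, 443 and 952 CPM in WT. Havcr2, the coinhibitory receptor TIM-3, stood at 0, 5.61 and 152 CPM in KO and at 2.65, 1.85 and 70.7 CPM in WT. Each of these 6 was highest in the cells richest in the cluster in both genotypes.

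Other genes ran the opposite way. Tcf7, a transcription factor of early NK and T cells, stood at 200, 77.2 and 3.70 CPM in KO and at 58.4, 59.3 and 4.22 CPM in WT. Cxcr4, a receptor for the chemokine CXCL12, stood at 404, 122 and 25.9 CPM in KO and at 119, 37.0 and 7.39 CPM in WT. Cd27, a receptor found on less mature mouse NK cells, stood at 124, 53.3 and 3.70 CPM in KO and at 92.8, 35.2 and 4.22 CPM in WT. Granzyme A was also lowest in the richest cells: Gzma stood at 3476, 3077 and 754 CPM in KO and at 4544, 4392 and 2792 CPM in WT. Xcl1, a chemokine gene, stood at 823, 857 and 40.7 CPM in KO and at 2027, 1471 and 216 CPM in WT.

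**Figure D3:**
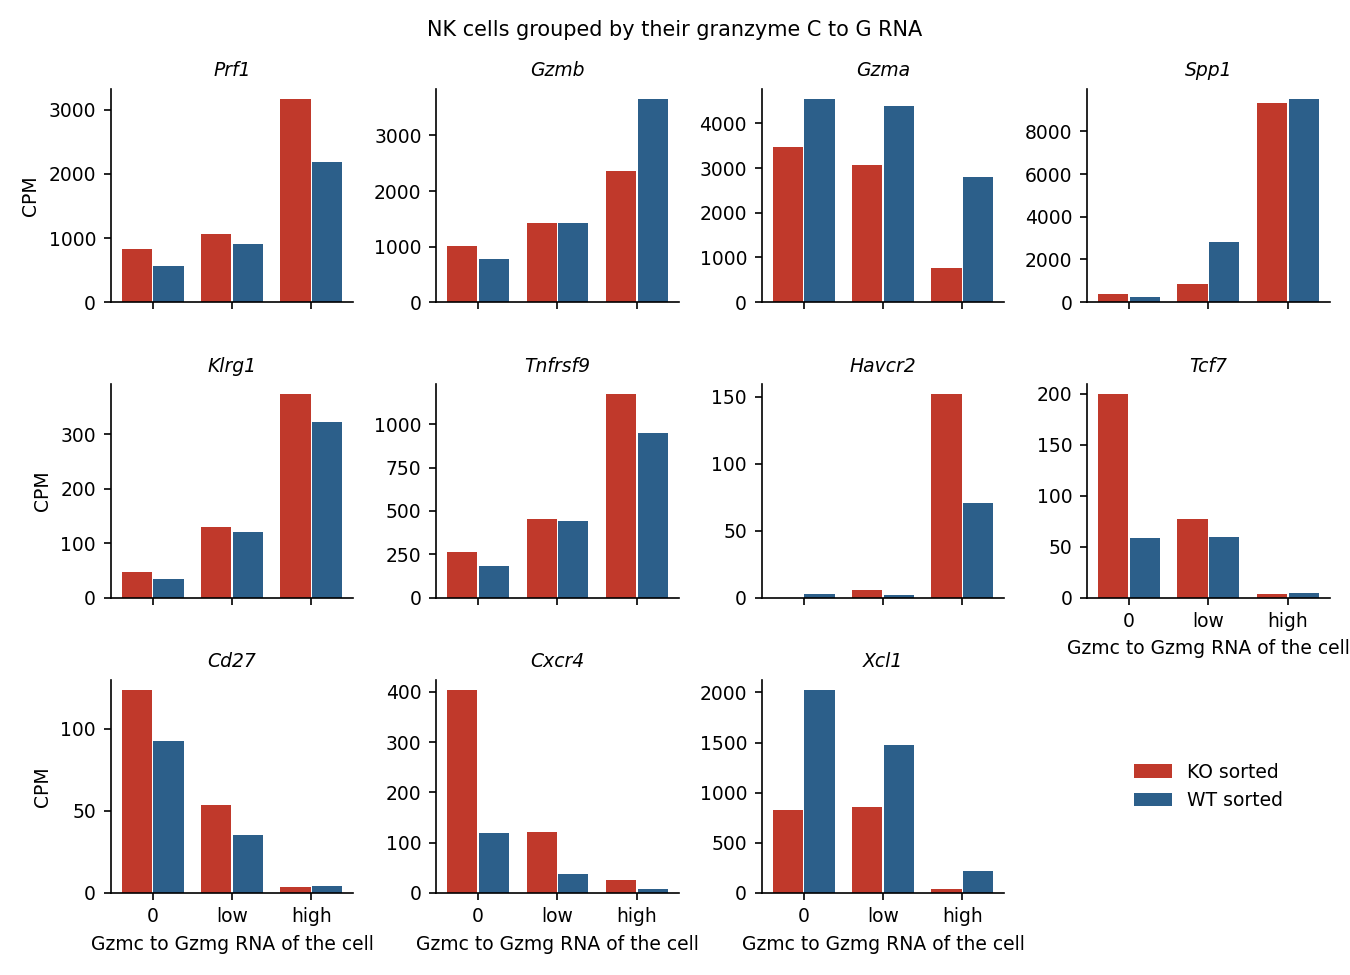
Levels (CPM, bars, each panel on its own scale) of 11 genes in KO and WT sorted NK cells with none of the cluster (0), under 10000 CPM of it (low) and 10000 CPM or more (high). Prf1, Gzmb, Spp1, Klrg1, Tnfrsf9 and Havcr2 are highest in the high range, and Gzma, Tcf7, Cd27, Cxcr4 and Xcl1 are lowest there, in both genotypes.

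Of 15 tested members of the granule list, which includes the cluster, 12 were at least 1.5-fold lower and 1 higher in KO NK cells, and the median log2 ratio was -1.06. The 10 members outside the cluster differed by smaller amounts: 7 were lower and 1 higher, with a median of -0.70. Scaled by total UMIs, 3 of those 10 were lower and 1 higher (median -0.34), and without mixed cells 7 were lower and 1 higher (median -0.90). Gzmb, the main granzyme of apoptosis, had 1351 CPM in KO and 2200 CPM in WT sorted NK cells (-1.06, -1.13 to -0.99). In cells with no UMI of the cluster its log2 ratio was 0.028. Gzma, a granzyme abundant in resting NK cells, had 2955 CPM in KO and 3786 CPM in WT (-0.72), a difference that passed under 1.5-fold when scaled by total UMIs (-0.36) or without cells with a CD3 UMI (-0.47). Srgn, the proteoglycan serglycin that packs granules, had 666 CPM in KO and 1190 CPM in WT (-1.20). Nkg7, a granule membrane protein, had 1000 CPM in KO and 1364 CPM in WT (-0.81, or -0.45 by total UMIs).

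Cst7, an inhibitor of cathepsins (-0.68), and Ctsw, a cathepsin of killer cells (-0.65), were likewise under 1.5-fold by total UMIs, at -0.32 and -0.29. Prf1 did not reach 1.5-fold, with 1241 CPM in KO and 1361 CPM in WT sorted NK cells (-0.49, -0.57 to -0.42). It was -0.78 without mixed cells, -0.74 with equal weight for every cell and -0.64 with cells thinned to 2000 UMIs. By total UMIs Prf1 was -0.13, and in cells with no UMI of the cluster it was 0.23. Lamp1, a lysosome membrane protein shown on the surface after degranulation, was -1.19, and -0.12 without mixed cells. The exception in the list was Serpinb9, the inhibitor that shields killer cells from their own granzyme B, with 644 CPM in KO and 238 CPM in WT sorted NK cells (1.08, 0.94 to 1.23). It was the only tested member of the list at least 1.5-fold higher in KO, and it stood at 1.12 without mixed cells. Serpinb6b, another granzyme inhibitor, differed by -0.13.

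In the main values, counts of receptor genes past 1.5-fold were under the shares over all genes tested, 24.4% higher and 27.4% lower. Of 22 tested activating receptor genes, 4 were at least 1.5-fold higher and 5 lower in KO NK cells, with a median log2 ratio of 0.04. Without mixed cells 2 were higher and 7 lower, with a median of -0.21. Of 11 tested inhibitory receptor genes, 2 were higher and 2 lower, with a median of -0.31, and without mixed cells 1 was higher and 4 were lower of 10. Ncr1 had 301 CPM in KO and 523 CPM in WT sorted NK cells (-1.16, -1.30 to -1.01), and -1.47 without mixed cells. Klrb1c differed the other way but by less than 1.5-fold, with 420 CPM in KO and 265 CPM in WT (0.30). Klrk1, which encodes the activating receptor NKG2D, was close to the median gene (0.04, -0.09 to 0.16), but -0.69 in cells with no UMI of the cluster.

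Of 4 adaptors through which NKp46 and other activating receptors signal, 2 were lower in KO and 2 differed by less than 1.5-fold. Fcer1g had 1294 CPM in KO and 2275 CPM in WT sorted NK cells (-1.17), and Tyrobp, which encodes DAP12, had 1341 CPM in KO and 2517 CPM in WT (-1.27). Both genes are also strong in myeloid cells, and without mixed cells the log2 ratios were -1.18 and -1.36. Cd247, which encodes the CD3 zeta chain, was 0.05, and Hcst, which encodes DAP10, was 0.36 (0.71 by total UMIs). Fcgr3, the Fc receptor CD16, had 30.6 CPM in KO and 130 CPM in WT (-2.44), and -1.53 without mixed cells. Klrc1 and Klrc2, the inhibitory and activating lectin receptors NKG2A and NKG2C, were higher in KO. Klrc1 had 332 CPM in KO and 104 CPM in WT (1.32, 1.10 to 1.53), and Klrc2 had 296 CPM in KO and 101 CPM in WT (1.20, 0.98 to 1.42). In cells with no UMI of the cluster they were 0.26 and 0.46. Klra4 (0.72) and Klra8 (0.76), activating Ly49 receptors, were under 1.5-fold without mixed cells, at 0.32 and 0.40. Klrg1 (-0.97) and Tnfrsf9 (-0.76) were lower in KO in all cells (Tnfrsf9 -0.40 by total UMIs), and stood at 0.10 and 0.18 in cells with no UMI of the cluster. In those cells Ncr1 was -1.61.

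Transcription factors of the NK lineage were mostly higher in KO NK cells. Of 19 tested, 13 were at least 1.5-fold higher and 1 lower, with a median log2 ratio of 0.92, or 0.87 without mixed cells. Eomes, which sets NK identity and maturation, had 420 CPM in KO and 155 CPM in WT sorted NK cells (1.08, 0.90 to 1.26). Tbx21, the related factor T-bet, had 112 CPM in KO and 29.9 CPM in WT (1.55, 1.16 to 1.95). Tcf7 had 128 CPM in KO and 37.4 CPM in WT (1.42), and Ets1, needed for NK development, 598 CPM in KO and 185 CPM in WT (1.34). Batf, an activation-linked factor, was the one at least 1.5-fold lower (-1.08), on 40 UMIs in KO and 81 in WT. Irf8 was 0.69 and Id2, which blocks other lymphoid fates, 0.39.

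Over the 18 factors tested in both classes, the median was 0.96 in NK cells and 0.74 in CD8+ effectors of the same libraries, whose own background was 23.6% higher and 24.9% lower of 3880 genes. The 11 list members tested in B cells, which need not be among those 18, had a median of 0.27. The background in B cells was 24.0% higher and 27.4% lower of 7285 genes. Whether these medians differ was not tested.

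Receptors and mediators of interleukins 2, 12, 15 and 18 were also mostly higher in KO. Of 23 tested, 16 were at least 1.5-fold higher and 1 lower, with a median of 0.89. Il2ra, the high-affinity subunit of the interleukin 2 receptor, had 45.9 CPM in KO and 7.49 CPM in WT sorted NK cells (2.26, 1.52 to 3.08), on 90 UMIs in KO and 18 in WT. Il18rap, a subunit of the interleukin 18 receptor, had 173 CPM in KO and 44.1 CPM in WT (1.61). Il2rb, the shared subunit for interleukins 2 and 15, was chosen after its values were seen and had 1883 CPM in KO and 734 CPM in WT (1.00, 0.92 to 1.08). Il7r, the interleukin 7 receptor, was the 1 lower member, at 9.18 CPM in KO and 22.9 CPM in WT (-1.68), and without mixed cells it had 18 UMIs in KO and 13 in WT (-0.12). The list median passed under 1.5-fold with equal weight for every cell (0.55) and with cells thinned to 2000 UMIs (0.47). Over the 17 members tested in both classes it was 0.89 in NK cells and 0.23 in effectors.

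Of 11 tested genes of maturation and exit from tissue, 6 were at least 1.5-fold higher and 0 lower in KO NK cells, with a median of 0.69. That median was 0.32 without cells with a CD3 UMI, 0.19 with equal weight per cell, 0.23 when thinned, 0.25 in cells with no UMI of the cluster and 0.24 over members with at least 20 UMIs. Emb, a chaperone of lactate transporters, had 539 CPM in KO and 159 CPM in WT sorted NK cells (1.40). Cd27 (0.99) turned to -0.17 when cells were thinned, and was 0.06 in cells with no UMI of the cluster. Of 20 tested genes of group 1 innate lymphoid cells and residency, 6 were higher and 5 lower, with a median of 0.24. Itga1, the residency integrin CD49a, was 0.23 (-0.05 to 0.51), 0.81 in cells with no UMI of the cluster and -0.36 when thinned. Of 14 tested genes of the response to TGF-beta, 9 were higher and 1 lower, with a median of 0.98 that was 0.57 when thinned. Spry2, an inhibitor of receptor tyrosine kinase signaling, had 601 CPM in KO and 187 CPM in WT (1.32), and Ctla2a, a protease inhibitor, 959 CPM in KO and 1221 CPM in WT (-0.71).

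**Figure D4:**
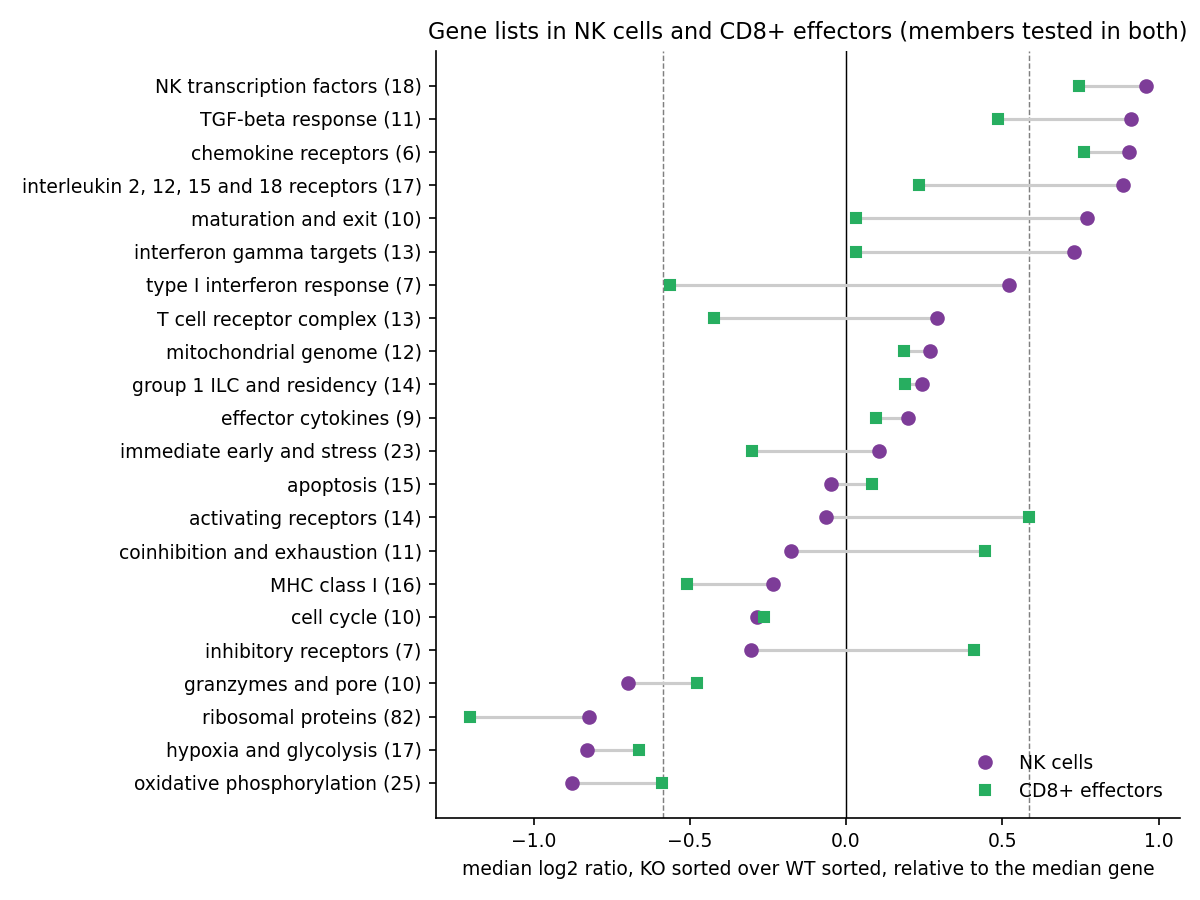
Median log2 ratio KO over WT, relative to the median gene, of 22 gene lists in sorted NK cells (circles) and CD8+ effectors (squares), over the members tested in both, whose number is in brackets, with dashed lines at 1.5-fold. Over these shared members, transcription factors are the highest list in NK cells (0.96, against 0.74 in effectors) and oxidative phosphorylation the lowest (-0.88, against -0.59). The shared members leave out granzymes C to G. Over all members tested in NK cells, the response to TGF-beta was highest (0.98) and the granule list lowest (-1.06).

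The direction of secreted effectors depended on how cells were weighted. Of 11 tested cytokine and chemokine genes, 2 were at least 1.5-fold higher and 2 lower in KO NK cells, with a median of 0.20. With equal weight for every cell 2 were higher and 6 lower (median -0.64), and with cells thinned to 2000 UMIs 0 were higher and 5 lower of 9 (median -0.78). In cells with no UMI of the cluster 1 was higher and 5 were lower of 9 (median -0.80), and without mixed cells the median was -0.29. Ifng, interferon gamma, had 142 CPM in KO and 122 CPM in WT sorted NK cells (-0.14, -0.38 to 0.10). It was -0.64 with equal weight for every cell, -0.78 when thinned and -0.80 in cells with no UMI of the cluster. A UMI of Ifng was found in 35.2% of KO and 55.4% of WT sorted NK cells, or in 20.9% of KO and 28.1% of WT cells when thinned, against 0.318% of KO and 0.206% of WT sorted B cells. Ccl5, a chemokine of T and NK cells, was 0.20 over summed UMIs, but -0.92 with equal weight, -0.89 when thinned and -1.44 in cells with no UMI of the cluster. Fasl, the death ligand of Fas, had 159 CPM in KO and 63.6 CPM in WT (0.96, 0.49 when thinned and 0.23 in cells with no UMI of the cluster), and Flt3l, a growth factor for dendritic cells, 65.3 CPM in KO and 24.5 CPM in WT (1.05). Xcl1, a chemokine that draws cross-presenting dendritic cells, had 727 CPM in KO and 1064 CPM in WT (-0.91, -0.55 by total UMIs and -1.65 in cells with no UMI of the cluster). Ccl1 was lower in KO (-2.33), but it was found in 8 KO and 20 WT cells, and without cells with a CD3 UMI it was 0.32. Of 8 tested chemokine receptors, 3 were higher and 3 lower (median 0.15). The median was 0.73 without mixed cells and -0.10 with equal weight for every cell. Over only 3 members each, it was 0.90 when thinned and 1.34 with at least 200 UMIs per gene. Cxcr4 had 249 CPM in KO and 38.3 CPM in WT (2.35, 2.02 to 2.68), and Cxcr6 51.0 CPM in KO and 7.90 CPM in WT (2.33), the last found in 27 KO and 8 WT cells and 1.03 with equal weight for every cell. Cxcr4 was also higher in KO in the other classes, with 515 CPM in KO and 125 CPM in WT effectors (1.64) and 1748 CPM in KO and 272 CPM in WT B cells (2.24).

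Of 16 tested targets of interferon gamma, 10 were at least 1.5-fold higher and 2 lower in KO NK cells, with a median of 0.76, or 0.38 when thinned and 0.54 over members with at least 200 UMIs. Over the 13 tested in both classes, 7 were higher and 2 lower in NK cells (median 0.73), and 0 were higher and 2 lower in effectors (median 0.03). Nlrc5, the activator of MHC class I genes, had 79.1 CPM in KO and 12.9 CPM in WT (2.26), while Psmb8, an immunoproteasome subunit, had 273 CPM in KO and 668 CPM in WT (-1.65). Of 16 tested MHC class I genes, 3 were higher and 4 lower (median -0.23). Of 18 tested type I interferon genes, 7 were higher and 4 lower (median 0.47), and without mixed cells 6 were higher and 1 lower of 10 (median 0.71). They were led by Ifi44 with 52 UMIs in KO and 5 in WT.

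Lists of growth and metabolism were lower in KO NK cells. Of 25 tested cell cycle genes, 1 was at least 1.5-fold higher and 15 were lower, with a median of -0.998, but it was -0.65 without mixed cells, -0.35 when thinned, -0.09 in cells with no UMI of the cluster and -0.18 over members with at least 200 UMIs. Birc5, a mitotic regulator, had 10.2 CPM in KO and 54.9 CPM in WT (-2.79), on 20 UMIs in KO and 132 in WT. Of 27 tested hypoxia and glycolysis genes, 1 was higher and 18 were lower (median -0.83). Egln3, an oxygen sensor, had 4.59 CPM in KO and 28.7 CPM in WT (-3.00), but without mixed cells it had 9 UMIs in KO and 13 in WT (-1.12). Vegfa, a blood vessel growth factor, was the 1 higher member, at 198 CPM in KO and 62.8 CPM in WT (1.30).

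Of 26 tested genes of oxidative phosphorylation, 0 were higher and 17 lower (median -0.88), and of 84 tested ribosomal protein genes 2 were higher and 53 lower (median -0.82). These lists were low in KO in other classes too. Over shared members, hypoxia and glycolysis had medians of -0.83 in NK cells and -0.66 in effectors, oxidative phosphorylation -0.88 in NK cells and -0.59 in effectors, and ribosomal proteins -0.82 in NK cells and -1.20 in effectors. B cells had medians of -0.75, -1.05 and -1.28 over all list members tested there (22, 26 and 84), which are not the same sets of genes. By total UMIs the NK medians were -0.47, -0.52 and -0.46, all under 1.5-fold.

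Immediate early and stress genes had 7 of 24 tested higher and 7 lower (median 0.09), near the share over all genes in each direction. Coinhibition genes had 5 higher and 2 lower of 13 tested (median -0.18), with a median of 0.63 when thinned and 0.83 over the 10 members with at least 200 UMIs. Apoptosis genes had 6 higher and 5 lower of 18 (median 0.03), T cell receptor genes 4 higher and 2 lower of 13 (median 0.29) and mitochondrial genome genes 4 higher and 0 lower of 13 (median 0.39).

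The 10 highest genes in KO over WT, ranked among genes of 100 or more summed UMIs and at least 50 CPM in 1 library, were Dgat1, Arl4d, Mir142hg, Cxcr4, Cxcr6, Satb1, Fosl2, Nlrc5, Nr4a2 and Ipcef1. Nr4a2, an orphan nuclear receptor induced by activation, had 617 CPM in KO and 103 CPM in WT sorted NK cells (2.22), and Satb1, a chromatin organiser of lymphocytes, 512 CPM in KO and 81.5 CPM in WT (2.29). Dgat1, an enzyme of triglyceride synthesis, had 310 CPM in KO and 46.2 CPM in WT (2.39), and Fosl2, an AP-1 subunit, 519 CPM in KO and 84.9 CPM in WT (2.26). Without mixed cells all 10 stayed between 1.96 and 2.37. Nr4a2 was also higher in KO effectors (1.35) and KO B cells (log2 ratio 2.0), and Dgat1 in KO effectors (1.79) and KO B cells (0.83). The 10 lowest were Cxcl3, Ppbp, S100a9, Trem2, S100a8, Ifitm1, Pf4, Apoe, C1qa and Ptgs2, which include genes of neutrophils, platelets and macrophages. Cxcl3 had 0 UMIs in KO and 269 UMIs in WT, a log2 ratio of at most -6.55 with 3 counts set as the floor for 0. Without mixed cells only Apoe of these 10 still had 50 UMIs, with a log2 ratio of -1.37.

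Against CD8+ effectors of the same library, NK cells had far higher levels of the cluster, of Spp1 and of several activating receptors. The 2 classes were named from the same RNA, so these values are a description. Ratios of NK cells to effectors are relative to the median gene, and a gene is counted where it was at least 2-fold apart in the same direction in both sorted libraries. Of 5327 genes tested in both, 208 (3.9%) were higher and 153 (2.87%) lower in NK cells. Taken alone, the KO sorted library had 5.67% higher and 4.22% lower, and the WT sorted library 11.4% higher and 8.65% lower.

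Gzmc had 2627 CPM in NK cells and 10.8 CPM in effectors of the KO sorted library (7.94), and 9880 CPM in NK cells and 14.1 CPM in effectors of the WT sorted library (9.35). Gzmd had log2 ratios of 9.51 in KO and 8.41 in WT, and Gzmf 6.65 in KO and 8.85 in WT. Gzmb was closer, with 1351 CPM in NK cells and 366 CPM in effectors in KO (1.90), and 2200 CPM in NK cells and 365 CPM in effectors in WT (2.49). Prf1 had 1241 CPM in NK cells and 160 CPM in effectors in KO (2.96), and 1361 CPM in NK cells and 90.8 CPM in effectors in WT (3.80). Gzmk ran the other way, with 3 UMIs in NK cells and 104 in effectors in KO (-6.70), and 5 in NK cells and 189 in effectors in WT (-6.97). Of 16 tested granule genes, 10 were higher and 1 was lower in NK cells.

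**Figure D5:**
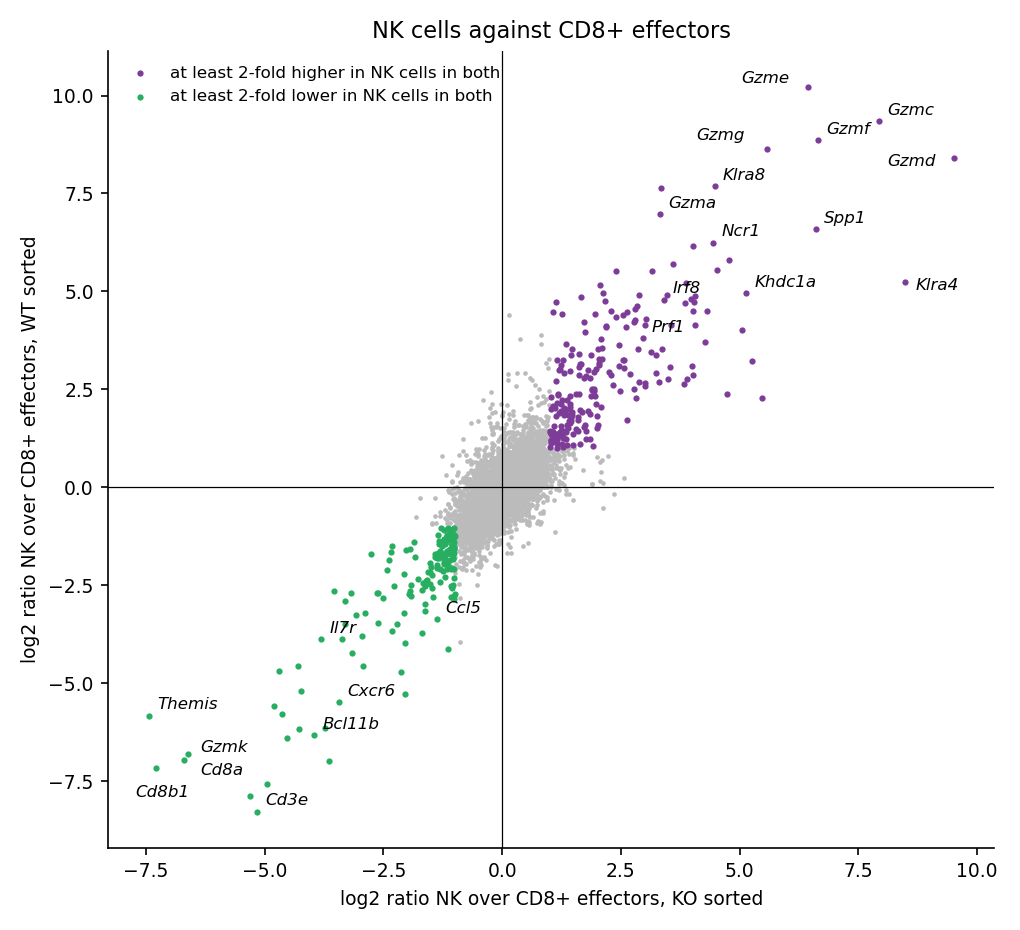
Log2 ratio of NK cells over CD8+ effectors, relative to the median gene, in the KO sorted (horizontal) and the WT sorted library (vertical), 1 point a gene, with bounds plotted where a class had 0 UMIs. Granzymes C to G, Spp1 and Klra8 lie high in both, and Cd8a, Cd8b1, Cd3e and Gzmk lie low in both.

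Beyond granules, Spp1 had 1784 CPM in NK cells and 18.5 CPM in effectors in KO (6.60), and 5038 CPM in NK cells and 48.6 CPM in effectors in WT (6.59). Khdc1a had 318 UMIs in NK cells and 0 in effectors in KO, and 307 in NK cells and 0 in effectors in WT, log2 ratios of at least 5.14 in KO and at least 4.95 in WT. Of 22 tested activating receptor genes, 12 were at least 2-fold higher and 2 lower in NK cells, with medians of 1.58 in KO and 3.22 in WT. Ncr1 was 4.45 in KO and 6.25 in WT, and Tyrobp 3.61 in KO and 5.71 in WT. Irf8, a transcription factor shared by myeloid cells and NK cells, had 1258 CPM in NK cells and 119 CPM in effectors in KO (3.42), and 609 CPM in NK cells and 20.5 CPM in effectors in WT (4.79). Klrk1 was under 2-fold in both libraries (0.34 in KO and 0.54 in WT, or 1.45 in WT with equal weight for every cell), as was Klrc1 (0.28 in KO and -0.17 in WT).

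Eomes was 1.02 in KO and 0.51 in WT, so it passed 2-fold in the KO sorted library alone (1.29 in WT when thinned), and the difference between libraries was not tested. T cell receptor genes were low in NK cells, with 0 of 19 tested higher and 16 lower, and medians of -3.65 in KO and -5.20 in WT. Cd8a had 10 UMIs in NK cells and 329 in effectors in KO (-6.62), and 12 in NK cells and 408 in effectors in WT (-6.81). Ccl5 was lower in NK cells, at 1749 CPM against 4533 CPM in effectors in KO (-1.36), and 1188 CPM against 11328 CPM in effectors in WT (-3.36). Cxcr6, which marks resident T cells, was -3.44 in KO and -5.49 in WT. The transcription factors Ikzf2 (-2.28 in KO and -2.52 in WT) and Tox (-2.07 in KO and -3.20 in WT) were also lower in NK cells.

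In the tumor libraries NK cells were few, and the genotypes could not be set apart in the same way. Granzymes C to G had 493 UMIs (1811 CPM) in 79 KO tumor NK cells and 76 UMIs (2054 CPM) in 12 WT tumor NK cells, a log2 ratio of -0.18 (-0.53 to 0.19). A single WT tumor cell, at 33960 CPM, held 73.7% of the cluster's UMIs there. A UMI of the cluster was found in 27.8% of KO tumor and 58.3% of WT tumor NK cells. The sorted libraries' lower level in KO was thus not seen in the summed UMIs of the tumor libraries, while fewer KO than WT cells held a UMI in both preparations, with only 12 WT tumor cells. Within the KO tumor library Gzmc had 1547 CPM in NK cells and 0 UMIs in 61 effectors, a log2 ratio of at least 6.38, and Spp1 was 5.99. Of 1256 genes tested there, 6.37% were at least 2-fold higher and 3.26% lower in NK cells.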

How the data were processed

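Cell Ranger 6.0.1, Seurat 4.0.5 and mm10 are named in the submitters' processing notes without their roles. The matrix that the authors deposited holds natural log values, ln(1 + 10000 × UMIs / total UMIs of the cell), although it is named as counts. The authors also deposited the total UMI count of each cell, with its library and cell type name. UMIs were recovered from both: all 60957742 nonzero values came out whole within 0.01 UMI, and the sums matched the totals in all 20376 cells. The smallest cell had 500 UMIs, and the authors' filters are not given in the sources used here.

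UMIs were summed over NK cells of a library (Python 3.11.15, numpy 2.4.6, scipy 1.17.1, pandas 2.3.3, Biopython 1.88 for alignments). With 1 library per group no test or p-value was computed. Ratios have conditional binomial intervals, shares Clopper-Pearson and CPM exact Poisson intervals, and a count of 0 was set to 3 counts in ratios, given as bounds. The procedure was tested on simulated data. Genes with at least 50 UMIs over both sets were tested, and called at 1.5-fold between genotypes and 2-fold between classes. No cell was removed as a doublet.

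The cells and the 29 gene lists were chosen with earlier results of these data known. Named genes were Cd200r1, the 4 markers, tested members of the granule, receptor, transcription factor, residency, maturation and cytokine lists, the 2 members of each other list that differed most in its direction and the 1 that ran most against it, and 10 genes from each end of every comparison. Il2rb and Styk1 fall outside that rule, and some genes are not reported here. Gene positions are from GENCODE M21 (GRCm38), promoters from RefSeq. Alternatives were scaling by total UMIs, leaving out cells with a CD3 UMI or mixed cells, keeping only cells with Ncr1 or Klrb1c, equal weight per cell, thinning to 2000 UMIs, leaving out ribosomal, mitochondrial and hemoglobin genes, other UMI minimums and folds, and, chosen after seeing the data, only NK cells with no UMI of Gzmc to Gzmg.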

Additional observations from a re-analysis of the deposited data

Results flagged for a closer look

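Over summed UMIs, the log2 ratio KO over WT of 4 genes had opposite signs in sorted NK cells and in sorted CD8+ effectors. Each ratio was 1.5-fold or more relative to the median gene of its class. These differences between the classes were not tested, since each genotype is 1 library. Gzma was lower in KO NK cells (-0.72, or -0.36 by total UMIs) and higher in KO effectors (3.00), a difference of -3.72, with 193 UMIs in KO and 22 in WT effectors. Tyrobp was -1.27 in NK cells and 0.91 in effectors, a difference of -2.17, on 72 UMIs in KO and 35 in WT effectors. Fcer1g was -1.17 in NK cells and 0.86 in effectors, a difference of -2.03, on 161 UMIs in KO and 81 in WT effectors. Tnfrsf9 was -0.76 in NK cells (-0.40 by total UMIs and 0.18 in cells with no UMI of the cluster) and 1.27 in effectors, a difference of -2.02, on 66 UMIs in KO and 25 in WT effectors. The effector ratios are over summed UMIs and depend on how cells are weighted. With equal weight per cell, Tyrobp in NK cells over effectors was 4.26 in KO and 4.96 in WT, against 3.61 and 5.71 over summed UMIs. Fcer1g was 2.84 in KO and 4.24 in WT, against 2.39 and 4.35. Gzma was 4.61 in KO and 6.95 in WT, against 3.32 and 6.97. The gap between the libraries was thus smaller with equal weight for these genes. For Tyrobp it was smaller than its NK ratio KO over WT with equal weight (-1.44), and for Fcer1g it was close to it (-1.25). The opposite signs are therefore stated for summed UMIs only, and for Tyrobp and Fcer1g they need not hold with equal weight.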

How the results depend on the processing

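No paired analysis was possible because cells are tied to a group and not to a sample, and no replicate could be left out because each group was 1 library. Of 1608 recomputed values of genes and lists, 1601 kept their direction or were not called, and 7 turned. Many of the 1601 moved: 87 with equal weight per cell, 83 when thinned, 78 in cells with no UMI of the cluster and 77 by total UMIs. Fewer moved in each other setting. A value not called in the main setting was not counted as turned, such as Ccl5 (0.20, but -1.44 in cells with no UMI of the cluster). Ccl1 was 0.32 (KO over WT, log2) without cells with a CD3 UMI, and Cd27 was -0.17 when thinned. Among NK cells with no UMI of the cluster, Gzmb was 0.028, Tnfrsf9 0.18, Klra4 -0.23, Klrg1 0.10 and Spp1 0.33. Medians that were not called turned past 1.5-fold for effector cytokines (0.20, but -0.64 with equal weight, -0.78 thinned and -0.80 cluster-free) and for coinhibition (-0.18, but 0.63 thinned and 0.83 with at least 200 UMIs per gene).

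The lower cluster level in KO kept its direction in every alternative run, at -2.36 by total UMIs, -2.77 without CD3 cells, -3.09 with equal weight per cell and -3.06 when thinned. Genes higher and lower in KO, 1767 and 1977, were 2903 and 1116 by total UMIs, 656 and 711 when thinned, 1038 and 1096 in cells with no UMI of the cluster, 815 and 856 with at least 200 UMIs per gene and 759 and 1008 at 2-fold. Genes higher and lower in NK cells than in effectors, 208 and 153, were 56 and 36 when thinned, 50 and 78 in cells with no UMI of the cluster, 372 and 252 with at least 20 UMIs per gene, 64 and 46 with at least 200 and 479 and 426 at 1.5-fold. Of the 22 gene lists, 5 had a median higher and 5 lower in KO, which became 9 and 2 by total UMIs, 7 higher without mixed cells and 3 higher when thinned. Against effectors 2 lists were higher and 2 lower; 1 was lower without mixed cells, with equal weight, thinned, at 20 and at 200 UMIs, and 1 was higher and 1 lower in cells with no UMI of the cluster. Fewer cells or genes entered the thinned, cluster-free and 200-UMI values; the cause of the other changes was not tested. With 1 library per group, depth limits counting error alone, and 12 WT tumor NK cells limit that preparation.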
